A study of Bos taurus with 22 samples.

Results

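The adherens junction protein E-cadherin, its cytoskeletal partner α-catenin and 8 genes of the Hippo pathway and of the SMAD factors that meet it were followed in the jejunal mucosa of growing Holstein steers. The genes were CDH1, CTNNA1, YAP1, WWTR1, MOB1B, LATS2, LIMD1, WWC1, SMAD3 and SMAD9, found by symbol in the deposited gene table, where these 10 of 27570 genes each had 1 identifier. RNA of scraped mucosa from 22 steers aged 10 to 12 months had been sequenced in bulk. Every steer, controls included, had raw corn starch infused into the abomasum at 3.94 g/kg of body weight (BW) per day for 7 d. Control steers (n = 5) had water in the infusate in place of casein and injections of the bovine serum albumin (BSA) vehicle. GLP-2 steers (n = 5) had no casein and 100 µg of glucagon-like peptide 2 per kg of BW per day, under the skin in 2 daily injections. Casein steers (n = 6) had 1.30 g of casein per kg of BW per day with the vehicle, and casein + GLP-2 steers (n = 6) had both. Another GLP-2 steer was not analysed here. The question was whether the peptide hormone, the infused protein or both together changed the expression of these genes.

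E-cadherin spans the lateral membranes of neighbouring epithelial cells and, through β-catenin and α-catenin, ties them to actin. Hippo signaling is a kinase relay in which STK3 and STK4 (MST kinases), with their scaffold SAV1, activate LATS1 and LATS2, which act together with MOB1A or MOB1B. Active LATS kinases phosphorylate the co-activators YAP1 and WWTR1 (TAZ) and keep them out of the nucleus, where these would otherwise bind TEAD factors and drive growth genes such as CCN1 and CCN2. In the intestine the pathway is known for its part in crypt growth and regeneration. Much of its control lies in phosphorylation and protein location, which RNA counts do not measure.

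Library totals ran from 8809666 to 28447810 counts. Values are counts per 1000000 (CPM), scaled by the trimmed mean of M-values (TMM), unless FPKM, the same kind of value divided by gene length, is named. Differences were tested by the quasi-likelihood F test of edgeR, genes were called where the p adjusted over all genes tested (Benjamini-Hochberg) did not exceed 0.05, and a log2 fold change is followed by its standard error. The tissue label was borne out by its markers: all 24 villus enterocyte genes examined were counted, with sums of 4291 to 91932 CPM in the 11 BSA steers and 32680 to 137542 CPM in the 11 GLP-2-treated steers. Libraries also differed in lymphoid tissue. The summed CPM of 16 B cell follicle genes were 1141 to 2478 in 4 BSA steers (control replicates 1, 3 and 5 and casein replicate 3) and 68.8 to 253 in the other 18 steers, and these 4 steers are called follicle-rich. In bulk RNA, fewer cells of a type and less RNA per cell cannot be told apart.

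With GLP-2, CDH1 rose 0.90 ± 0.26 on the log2 scale (adjusted p = 0.0307, edgeR) and MOB1B rose 0.66 ± 0.19 (adjusted p = 0.0329, edgeR), in 11 GLP-2-treated against 11 BSA steers. The other 8 genes did not pass. These were 2 of 10 genes, where 13.5% of the 13928 genes tested passed in either direction and 5.13% were higher. Before adjustment, p was below 0.05 for 7 of the 10 genes and for 34.6% of all genes tested, and 9 of 10 fold changes were above 0 against 50.7%. With the replicate block as a term, edgeR called the same 2 genes and 4.95% of all genes. The median log2 fold change was 0.66 over the 10 genes and 0.01 over all genes tested. With the 4 follicle-rich steers left out (11 against 7), 0 of 10 genes and 0 of 14285 genes were called by edgeR, while unadjusted p was below 0.05 for 6 of 10 genes and 13.5% of all genes. DESeq2's Wald test, run on all 22 steers, called 6 of 10 genes (CDH1, CTNNA1, YAP1, MOB1B, LIMD1 and SMAD9) and 21.5% of all genes. Leaving out 1 steer at a time moved the edgeR count between 0 of 10 (without casein replicate 1, casein + GLP-2 replicate 1 or 3, control replicate 3 or GLP-2 replicate 6) and 8 of 10 (without control replicate 2). The count over all genes moved as well, from 634 (without casein + GLP-2 replicate 3) to 3516 (without control replicate 2). With all steers it was 1881 of 13928.

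**Figure D1:**
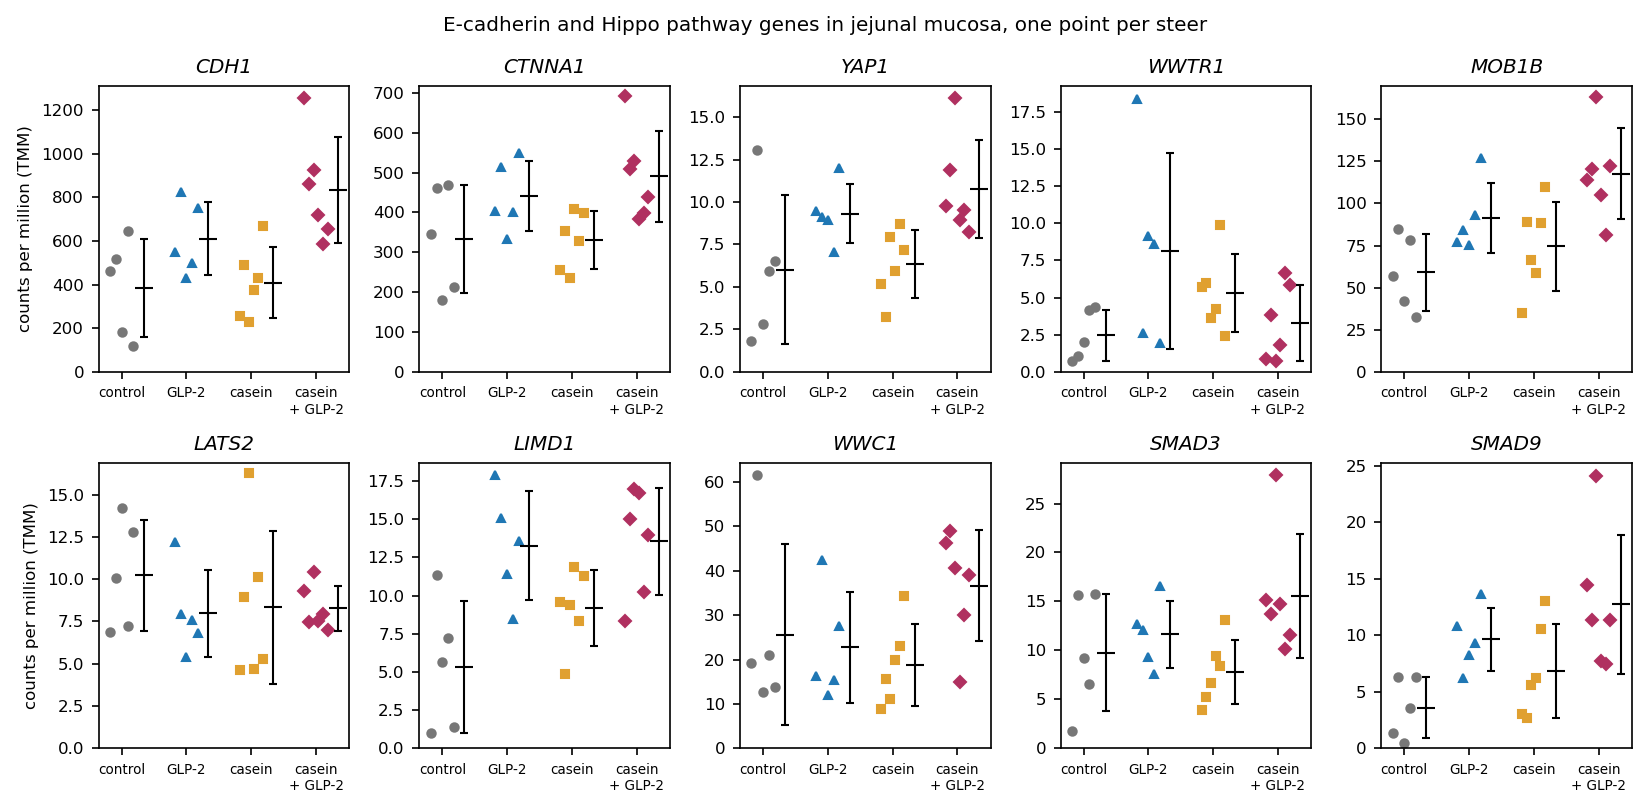
CPM of the 10 genes (y axis, TMM-scaled, from 0) in each steer, by treatment in the order control (5), GLP-2 (5), casein (6) and both (6), with the mean ± SD of each treatment. CDH1 and MOB1B sat highest in casein + GLP-2 steers, while WWTR1 was highest in 1 GLP-2 steer at 18.4 CPM, and in every panel the BSA and GLP-2-treated steers overlap.

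CDH1 (chromosome 18, 36046665 to 36119368, plus strand, ARS-UCD1.2) encodes E-cadherin and had the highest median CPM of the 10 genes. Control steers had 463, 519, 185, 645 and 116 CPM, and GLP-2 steers had 550.4, 823, 429.7, 500.05 and 752 CPM. Casein steers ran from 229.6 to 667 CPM with a median of 404, and casein + GLP-2 steers from 584 to 1253 CPM with a median of 789.95. The lowest values, 116, 185 and 229.6 CPM, came from 3 of the follicle-rich steers, and 6 of 11 GLP-2-treated steers lay above the highest BSA steer. The means were 398 ± 183 CPM (SD, n = 11) in BSA and 732 ± 232 CPM (SD, n = 11) in GLP-2-treated steers. Without the follicle-rich steers the log2 fold change was 0.60 ± 0.23 (adjusted p = 0.320, edgeR), and with the replicate block as a term it was 0.96 (adjusted p = 0.0493, edgeR).

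CTNNA1 (chromosome 7, 49921360 to 50255751, plus strand) encodes αE-catenin, which links the cadherin and β-catenin complex to actin filaments. It ran from 181 to 469 CPM with a median of 345 in BSA steers and from 335 to 692 CPM with a median of 439.5 in GLP-2-treated steers, 10 of 11 of which were above the BSA median. The log2 fold change was 0.51 ± 0.17 (adjusted p = 0.0526, edgeR), just outside the threshold in edgeR and inside it in DESeq2's Wald test (adjusted p = 0.0247). The span of CTNNA1 holds LRRTM2 and 1 further protein-coding gene on the opposite strand, and whether reads were assigned by strand is not given in the sources used here.

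CDH1 and CTNNA1 stood far above the other genes per unit of length. Median FPKM in BSA steers was 92.8 for CDH1 and 85.2 for CTNNA1, against 10.2 for MOB1B, the next gene. CDH1 and CTNNA1 did not differ beyond their spread within BSA steers, where the log2 FPKM ratio of CDH1 to CTNNA1 was -0.01 ± 0.43 (SD, n = 11). In GLP-2-treated steers the same ratio was 0.45 ± 0.21 (SD, n = 11) and CDH1 was above CTNNA1 in 11 of 11 steers.

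MOB1B (chromosome 6, 86250301 to 86308361, plus strand) encodes a co-activator that binds LATS kinases. Control steers had 57.0, 85.0, 41.8, 78.3 and 32.7 CPM, and GLP-2 steers had 77.3, 83.9, 75.3, 93.3 and 127 CPM. Casein steers ran from 35.1 to 109.8 CPM with a median of 77.2, and casein + GLP-2 steers from 81.2 to 163 CPM with a median of 117. All 11 GLP-2-treated steers were above the BSA median, and 5 of 11 were above the highest BSA steer, so the groups overlapped. Without the follicle-rich steers the log2 fold change was 0.44 ± 0.20 (adjusted p = 0.354, edgeR). Its paralog MOB1A, which has the same role, gave a log2 fold change of 0.12 ± 0.20 (adjusted p = 0.696, edgeR). MOB1A was the higher of the pair per unit of length in 22 of 22 steers, and the log2 FPKM ratio of MOB1B to MOB1A was -1.77 ± 0.59 (SD, n = 11) in BSA and -1.26 ± 0.48 (SD, n = 11) in GLP-2-treated steers.

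LATS2 (chromosome 12, 35662146 to 35684640, plus strand), a kinase that phosphorylates YAP1, was the only gene of the 10 with a fold change below 0. It ran from 4.65 to 16.3 CPM with a median of 8.95 in BSA steers and from 5.38 to 12.2 CPM with a median of 7.57 in GLP-2-treated steers. The 3 highest values, 16.3, 14.2 and 12.8 CPM, came from follicle-rich steers, and 3 of 11 GLP-2-treated steers were above the BSA median. The log2 fold change was -0.18 ± 0.22 with a 95% confidence interval from -0.63 to 0.28 (adjusted p = 0.578, edgeR), and it was 0.16 without the follicle-rich steers. LATS1, the other LATS kinase, gave 0.55 ± 0.19 (adjusted p = 0.0553, edgeR). Per unit of length, LATS2 was above LATS1 in 5 of 11 BSA steers and in 0 of 11 GLP-2-treated steers, and the log2 FPKM ratio of LATS2 to LATS1 was -0.14 ± 0.85 and -0.81 ± 0.35 (SD, n = 11 each).

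WWC1 (chromosome 7, 80336697 to 80493580, plus strand) encodes KIBRA, a scaffold that helps to activate LATS kinases. It ran from 8.89 to 61.6 CPM in BSA steers, with a median of 19.1, and from 12.1 to 49.0 CPM in GLP-2-treated steers, with a median of 30.02. Control replicate 2 held the highest value, and the log2 fold change was 0.49 ± 0.32 (adjusted p = 0.270, edgeR). Without that steer it was 0.78 ± 0.28 and WWC1 was called (adjusted p = 0.0429, edgeR), in a fit that called 3516 genes in all, against 1881 with all steers. The sign of WWC1 turned to -0.14 when the villus enterocyte score was a covariate. Its paralog WWC2 rose 1.00 ± 0.24 with GLP-2 (adjusted p = 0.0211, edgeR), although WWC1 was the higher of the pair in 22 of 22 steers per unit of length. Within the span of WWC1 lie 1 further protein-coding gene on the same strand and a microRNA gene, so its counts could hold reads of these.

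LIMD1 (chromosome 22, 53633801 to 53707789, minus strand) encodes a LIM domain protein of the AJUBA family, which restrains LATS kinases. Control steers had 1.00, 11.4, 5.65, 7.21 and 1.40 CPM, and GLP-2 steers had 17.9, 15.1, 11.4, 8.44 and 13.6 CPM. Casein steers ran from 4.86 to 11.9 CPM and casein + GLP-2 steers from 8.36 to 17.0 CPM. Of the 11 GLP-2-treated steers, 7 lay above the highest BSA steer, and control replicates 1 and 5 lay far below all others. The log2 fold change was 0.86 ± 0.31 (adjusted p = 0.0612, edgeR), and DESeq2's Wald test called it (adjusted p = 0.0345). The related AJUBA and WTIP had fewer counts and fold changes below 0, -0.99 ± 0.65 (adjusted p = 0.276, edgeR) and -1.07 ± 0.61 (adjusted p = 0.213, edgeR).

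YAP1 (chromosome 15, 6502784 to 6634349, minus strand), the co-activator at the end of the relay, had 1.80, 13.1, 2.82, 5.91 and 6.52 CPM in control steers and 9.497, 9.12, 8.91, 7.08 and 11.98 CPM in GLP-2 steers. Casein steers ran from 3.20 to 8.73 CPM with a median of 6.55, and casein + GLP-2 steers from 8.25 to 16.1 CPM with a median of 9.65. The 11 GLP-2-treated steers were all above the BSA median of 5.93 CPM. Control replicate 2, at 13.1 CPM, was above 10 of the 11 GLP-2-treated steers. The log2 fold change was 0.71 ± 0.25 (adjusted p = 0.0582, edgeR), and the adjusted p was 0.0137 in edgeR without control replicate 2 and 0.0331 in DESeq2's Wald test. Without control replicate 2, edgeR called 3516 genes in all, against 1881 with all steers. YAP1 rested on few counts, 29 to 227 per library.

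WWTR1 (chromosome 1, 118469263 to 118642804, plus strand), the paralog of YAP1, had the widest spread of the 10 genes in GLP-2-treated steers (a coefficient of variation of 95.3%). Control steers had 0.70, 1.06, 2.04, 4.17 and 4.34 CPM, and GLP-2 steers had 18.4, 2.61, 9.16, 8.64 and 1.91 CPM. Casein steers ran from 2.43 to 9.86 CPM with a median of 4.98, and casein + GLP-2 steers from 0.71 to 6.62 CPM with a median of 2.79. GLP-2 replicate 1 had 18.4 CPM, and without it the pooled log2 fold change went from 0.43 ± 0.48 (adjusted p = 0.537, edgeR) to 0.03 (adjusted p = 0.967, edgeR). Only 10 to 237 reads per library stood behind these values. YAP1 was above WWTR1 in 20 of 22 steers per unit of length.

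SMAD3 and SMAD9 carry TGF-β family signals into the nucleus, SMAD3 for TGF-β and activin and SMAD9 (SMAD8) for bone morphogenetic proteins (BMP). SMAD3 (chromosome 10, 13895783 to 14018262, plus strand) ran from 1.80 to 15.7 CPM with a median of 8.40 in BSA steers and from 7.57 to 27.9 CPM with a median of 12.7 in GLP-2-treated steers, and its log2 fold change was 0.67 ± 0.29 (adjusted p = 0.1065, edgeR). SMAD9 (chromosome 12, 24731844 to 24795963, plus strand) ran from 0.47 to 13.1 CPM with a median of 5.56 in BSA steers and from 6.22 to 24.1 CPM with a median of 10.8 in GLP-2-treated steers. SMAD9 had the highest fold change of the 10 genes, 1.09 ± 0.37 on the log2 scale (adjusted p = 0.0521, edgeR), and DESeq2's Wald test called it (adjusted p = 0.0230). Casein + GLP-2 replicate 3 held the highest value of both genes. The lowest SMAD9 library, control replicate 3, held 6 counts.

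By median FPKM, the order below MOB1B was WWC1, YAP1, LIMD1, SMAD3, LATS2, SMAD9 and WWTR1 in BSA steers, from 5.73 down to 2.29. None of these neighbours differed beyond the spread of their ratio within BSA steers. In GLP-2-treated steers the order was WWC1, LIMD1, YAP1, SMAD3, SMAD9, LATS2 and WWTR1, from 8.97 down to 2.10. There YAP1 was above SMAD3 and SMAD9 was above LATS2 beyond that spread, and the remaining neighbours of this order did not differ beyond it.

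**Figure D2:**
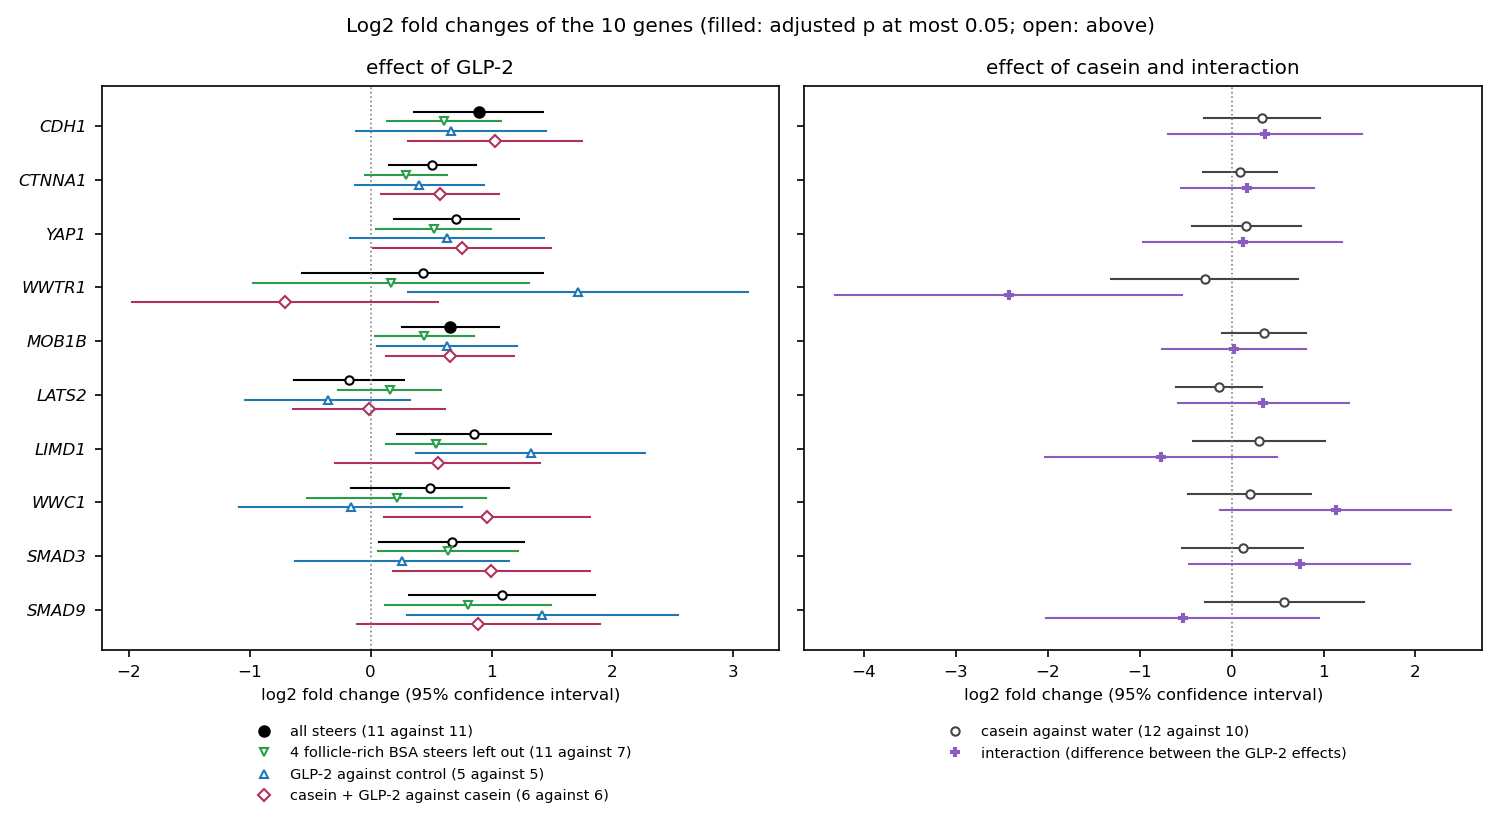
Log2 fold changes (x axis, with 95% confidence intervals) of the 10 genes. The left panel has GLP-2 against BSA with all steers and without the 4 follicle-rich steers, and GLP-2 within each infusion, and the right panel has casein against water and the interaction. Filled symbols, CDH1 and MOB1B in the pooled GLP-2 comparison, passed an adjusted p of 0.05, and the interaction of WWTR1 lay at -2.43.

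Within the infusions, 0 genes of the 10 were called in edgeR and 0% of the 15086 genes tested passed in any of the 4 pairwise comparisons or the interaction. In GLP-2 against control steers (5 against 5), unadjusted p was below 0.05 for 4 of 10 genes and 13.9% of all genes. These were LIMD1 with a log2 fold change of 1.32 ± 0.46, SMAD9 with 1.42 ± 0.54, WWTR1 with 1.72 ± 0.68 and MOB1B with 0.63 ± 0.28, and the lowest adjusted p was 0.229 (edgeR). Without control replicate 2, edgeR called LIMD1 in this comparison (adjusted p = 0.0410), while DESeq2's Wald test on all steers called 289 genes and none of the 10. In casein + GLP-2 against casein steers (6 against 6), it was below 0.05 for 6 of 10 genes and 24.1% of all genes. These were CDH1 at 1.03 ± 0.35, SMAD3 at 1.00 ± 0.39, WWC1 at 0.97 ± 0.41, YAP1 at 0.75 ± 0.35, MOB1B at 0.66 ± 0.26 and CTNNA1 at 0.57 ± 0.24, with a lowest adjusted p of 0.127 (edgeR). DESeq2's Wald test called CDH1 there (adjusted p = 0.0443), where 5.91% of all genes passed. Casein against control (unadjusted p below 0.05 for 0 of 10 genes and 5.66% of all genes) and casein + GLP-2 against GLP-2 (1 of 10, WWTR1, and 2.64%) gave no call among the 10 genes in either tool.

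The GLP-2 effects under the 2 infusions were compared by the interaction term. For WWTR1, GLP-2 against control gave 1.72 and casein + GLP-2 against casein gave -0.71 on the log2 scale, a difference of -2.43 ± 0.91 (unadjusted p = 0.0140, adjusted p = 0.996, edgeR). The interaction of WWTR1 did not pass the adjusted threshold, and 4.28% of all genes had an unadjusted p below 0.05. For WWC1 the difference was 1.13 ± 0.61 (adjusted p = 0.996, edgeR). The 95% confidence intervals of WWC1 and the other 8 genes included 0, for example that of LIMD1, from -2.03 to 0.49, and of SMAD9, from -2.02 to 0.96. DESeq2's Wald test called 2 of the 15086 genes for the interaction and none of the 10.

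Infused casein called none of the 10 genes. In 12 casein-infused against 10 water-infused steers, 0 of 10 genes passed in edgeR or in DESeq2's Wald test and 0% of the 14096 genes tested passed in edgeR (0.0355% in DESeq2's Wald test). Unadjusted p was below 0.05 for 0 of the 10 genes and for 3.36% of all genes. The 95% confidence intervals of the log2 fold change ran from -0.30 to 0.96 for CDH1, from -0.31 to 0.50 for CTNNA1, from -0.43 to 0.75 for YAP1 and from -0.10 to 0.81 for MOB1B, and changes within these ranges could not be told from 0. The widest intervals were those of WWTR1, from -1.31 to 0.72, and SMAD9, from -0.29 to 1.44.

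Beyond the 10 genes, 7 lists of their pathways held 112 tested genes, of which 20 were called with GLP-2, where 13.5% of all genes passed. With casein, 0 genes of the 7 lists were called in edgeR or in DESeq2's Wald test, and 1 had an unadjusted p below 0.05. In edgeR with the replicate block as a term 13 of the 112 were called (4.95% of all genes), and without the follicle-rich steers 0 of the list genes and 0 of all 14285 genes. Of 16 kinases and upstream scaffolds of the relay, 2 rose, WWC2 and the kinase TAOK3 (0.44 ± 0.14, adjusted p = 0.0375, edgeR). These were 12.5% of the list, where 13.5% of all genes were called and 5.13% were called higher. DESeq2's Wald test called 6 of the 16 (21.5% of all genes). Unadjusted p in edgeR was below 0.05 for 7 of the 16 (34.6% of all genes). The MST kinases STK3 (0.22 ± 0.17, adjusted p = 0.360, edgeR) and STK4 (0.19 ± 0.22, adjusted p = 0.551, edgeR) were not called. A further list held 16 genes whose proteins restrain the relay, hold YAP1 outside the nucleus or lead to its breakdown. Of these, 0 were called by edgeR, 2 by DESeq2's Wald test and 3 had an unadjusted p below 0.05, and 4 fold changes were above 0. These roles act on YAP1 in opposite ways, so the list has no single direction. Of 7 TEAD factors and their cofactors 4 were tested and 0 called by edgeR or DESeq2's Wald test (1 had an unadjusted p below 0.05).

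Of 21 target genes of YAP1 and WWTR1, 17 were tested and 0 were called by edgeR and 4 by DESeq2's Wald test, while 5 had an unadjusted p below 0.05 in edgeR. Over all genes these shares were 13.5%, 21.5% and 34.6%, so the last 2 counts lay near the background. With the replicate block 1 was called (4.95% of all genes), DOCK5 (0.89 ± 0.23, adjusted p = 0.0482, edgeR). Their median log2 fold change was -0.11 and 7 of 17 were above 0. CCN1, a secreted matrix protein and standard readout of YAP1, averaged 6.66 ± 6.16 CPM (SD, n = 11) in BSA and 3.14 ± 2.57 CPM (SD, n = 11) in GLP-2-treated steers, with a log2 fold change of -1.11 ± 0.57 (adjusted p = 0.165, edgeR). CCN2, its relative, averaged 4.86 ± 4.01 CPM and 2.72 ± 1.92 CPM (SD, n = 11 each), with -0.85 ± 0.45 (adjusted p = 0.186, edgeR). ANKRD1, another readout, had at most 4 counts in any library and was not tested. In which cells of the mucosa the targets were expressed was not tested, so their values are no reading of the epithelium alone.

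Adherens junction genes other than CDH1 and CTNNA1 were called in 5 of 18 cases, all higher with GLP-2 (5.13% of all genes), and in 3 of 18 in edgeR with the replicate block (4.95% of all genes). PLEKHA7, which binds p120-catenin at the apical junction belt, rose 0.99 ± 0.21 (adjusted p = 0.0189, edgeR). NECTIN3, a junction receptor, rose 0.86 ± 0.22, the actin-binding LIMA1 rose 0.75 ± 0.18, CTNND1 (p120-catenin), which stabilizes E-cadherin at the membrane, rose 0.69 ± 0.21, and the receptor phosphatase PTPRF rose 1.10 ± 0.34. The block ended the calls of PTPRF (adjusted p = 0.0561, edgeR) and CTNND1 (adjusted p = 0.0522, edgeR). CTNNB1 (β-catenin), at 0.45 ± 0.16 (adjusted p = 0.0523, edgeR), was among the 13 not called. The median over the 18 genes was 0.43.

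Of 10 polarity genes, apical and basolateral, 6 were called, against 13.5% of all genes. With the replicate block edgeR called 3 (PATJ, DLG1 and PRKCI), against 4.95%. PATJ (1.19 ± 0.31), DLG1 (0.71 ± 0.20), PRKCI (0.65 ± 0.17), PALS1 (0.63 ± 0.21) and LLGL2 (0.53 ± 0.15) rose, and LLGL1 fell by 0.45 ± 0.15 on the log2 scale. PATJ and PALS1 are scaffolds of the Crumbs complex, PRKCI is an atypical protein kinase C, and DLG1, LLGL1 and LLGL2 belong to the basolateral Scribble module. The 2 LLGL paralogs moved in opposite directions.

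TGF-β and BMP signaling genes were called in 7 of 31 cases (22.6%, against 13.5% of all genes), 6 higher and 1 lower. With the replicate block edgeR called 4, all receptor genes, against 4.95% of all genes. The receptors ACVR1B (1.27 ± 0.32), BMPR1A (0.76 ± 0.19) and ACVR2A (0.71 ± 0.18) had the largest rises, and the ligand TGFB1 fell by 0.51 ± 0.17 on the log2 scale. SMAD1, a BMP SMAD like SMAD9, rose 0.53 ± 0.16, while SMAD2, the close relative of SMAD3, stood at 0.05 ± 0.11 (adjusted p = 0.782, edgeR).

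**Figure D3:**
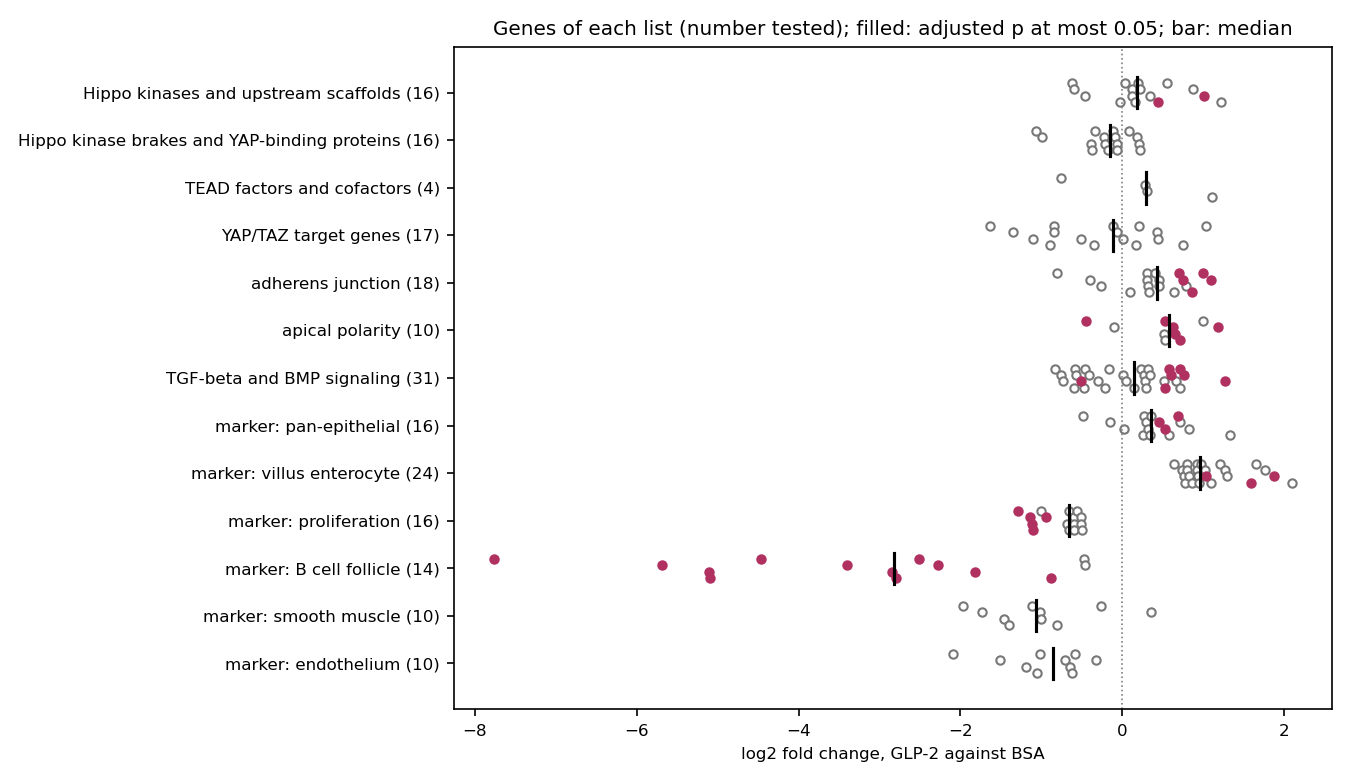
Log2 fold change of GLP-2 against BSA (x axis) for each gene of 7 pathway lists and 6 marker lists, with the number tested in brackets, the median as a bar and called genes filled. YAP1 and WWTR1 targets have a median of -0.11 and 0 called genes, adherens junction and polarity genes have medians of 0.43 and 0.58, and 12 of 14 B cell follicle genes were called, all lower.

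Markers of cell types moved with the same comparison. All 24 villus enterocyte genes had fold changes above 0 with a median of 0.96 (3 called, LCT, SLC5A1 and CDHR2), 3 of 16 pan-epithelial genes were called higher and 5 of 16 proliferation genes lower, and 12 of 14 follicle genes were called lower with a median of -2.82. With the replicate block 9 of the 14 follicle genes and 0 of these villus enterocyte, pan-epithelial and proliferation genes were called. Over all genes 13.5% were called (5.13% higher), and 4.95% with the block. The called villus enterocyte (12.5%) and pan-epithelial genes (18.8%) were all higher. Both shares lay above the 5.13% of all genes called higher. Of 10 smooth muscle and 10 endothelium genes 0 were called by edgeR and 2 and 1 by DESeq2's Wald test (21.5% of all genes). Unadjusted p in edgeR was below 0.05 for 4 and 2 of them (34.6% of all genes). Fold changes were below 0 for 9 of 10 smooth muscle, 10 of 10 endothelium and 10 of 10 stroma genes. Their medians were -1.07, -0.86 and -0.71, against -0.11 for T cell and 0.29 for macrophage genes. By edgeR 1 of 10 stroma genes (THY1) and 1 of 12 T cell genes (CD5) were called lower. Of 10 macrophage genes 1 was called higher (MRC1). No marker was at 0 in all steers of a group. When the B cell follicle, pan-epithelial or villus enterocyte score was a covariate, 0 of the 10 genes and 0 genes in all were called by edgeR, and the median log2 fold change of the 10 genes was 0.38, 0.48 and 0.35. The scores came from the same libraries and themselves differed by injection. Their means in GLP-2-treated and BSA steers were 1.47 and 3.70 (follicle), 6.90 and 6.45 (pan-epithelial) and 9.77 and 8.43 (villus enterocyte). These fits therefore cannot tell cell makeup from the injection, and how much of each gene's difference went with cell makeup was not tested.

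To see which of the genes went up and down together from steer to steer, treatment means were removed from log2 CPM and 145 relations were computed over the 22 steers, 45 between the genes and 100 of each gene with 9 marker scores and with the gene length trend of the library. Of these, 37 passed by Spearman's rho and 33 by Pearson's r in permutation tests within treatments (100000 resamples, 2-sided, adjusted over the 145). The libraries share depth scaling and composition, which ties such values together. CDH1 went with CTNNA1 (r = 0.91, rho = 0.93, permutation adjusted p = 0.00109 and 7e-04, r = 0.91 without the 2 farthest steers), and MOB1B and WWC1 went with both, with rho from 0.64 to 0.78 (all 4 passed by r and by rho). YAP1 went with SMAD9 (r = 0.79, rho = 0.82, permutation adjusted p = 0.0103 and 0.00447, r = 0.83 without the 2 farthest steers) and with SMAD3 (r = 0.77, rho = 0.72), SMAD3 went with SMAD9 by rho (0.71) but did not pass by r (0.62, permutation adjusted p = 0.0910), while CDH1 and YAP1 had a rho of 0.20.

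CDH1, CTNNA1, MOB1B and WWC1 followed villus enterocyte markers, of which the 10 genes are no members. With that score CDH1 had r = 0.88 and rho = 0.89 (permutation adjusted p = 0.00109 and 0.00145, r = 0.84 without the 2 farthest steers), CTNNA1 a rho of 0.91, WWC1 of 0.83 and MOB1B of 0.66, against 0.38 for YAP1. With the proliferation score the same 4 genes had a rho of -0.53 to -0.74, which passed by r for CTNNA1 and WWC1 and not for CDH1 and MOB1B. With the B cell follicle score their rho was -0.65 to -0.79, but the 4 follicle-rich steers stand apart in that score and no relation is read from it. With the endothelium score WWTR1 had r = 0.75 and rho = 0.71 (permutation adjusted p = 0.00391 and 0.00447, r = 0.71 without the 2 farthest steers), and with stroma and smooth muscle a rho of 0.64 and 0.61. CDH1 had a rho of -0.72 with the endothelium score. The values given with the villus enterocyte, endothelium, stroma and smooth muscle scores passed by r and by rho, except that of YAP1. The 4 follicle-rich steers, among them those with the lowest CDH1, were never left out together for any of these relations.

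**Figure D4:**
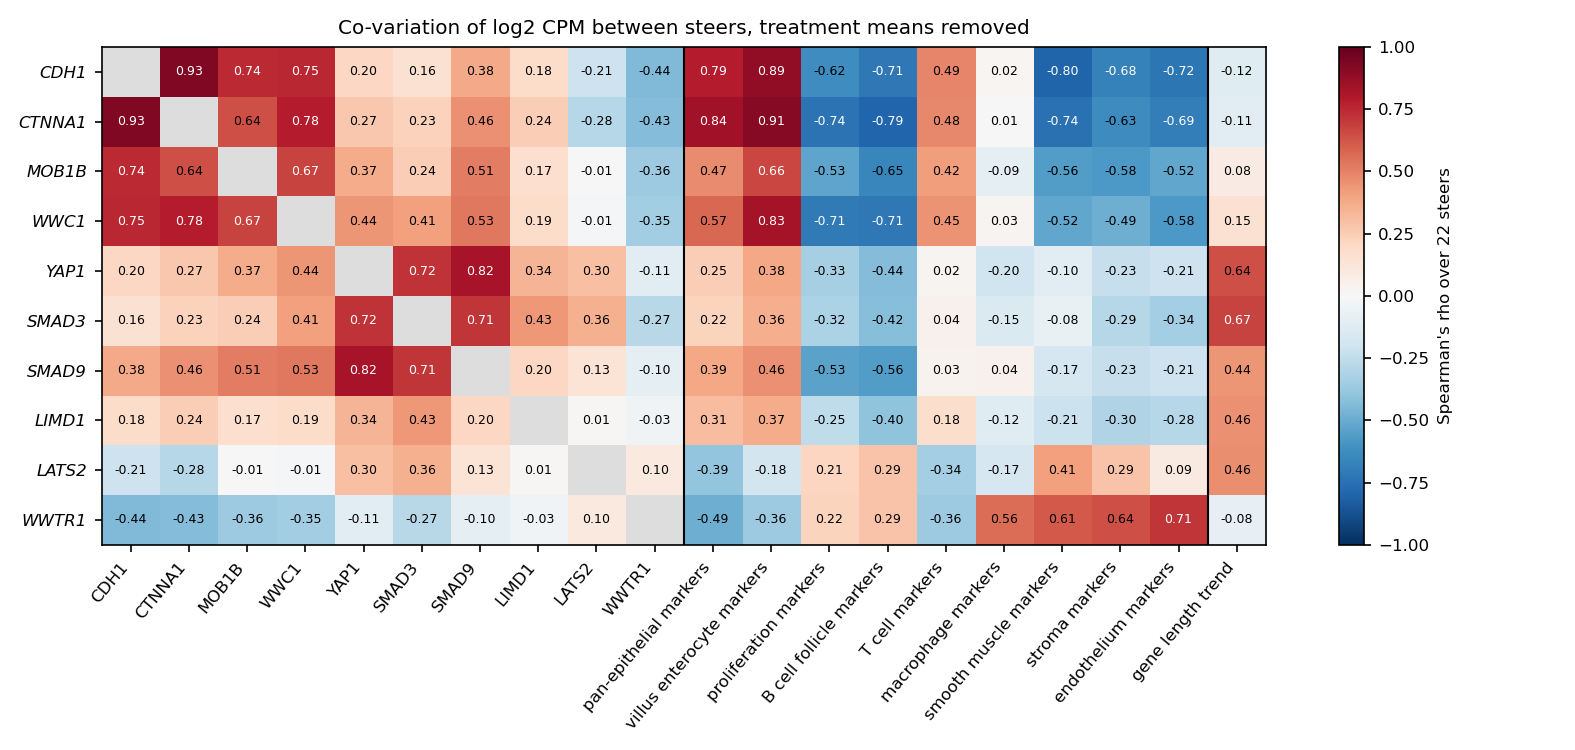
Spearman's rho over 22 steers with treatment means removed, for each of the 10 genes (rows) with the others, with 9 marker scores and with the gene length trend (columns), red above 0 and blue below. CDH1, CTNNA1, MOB1B and WWC1 go together and with villus enterocyte markers, YAP1 goes with SMAD3 (0.72) and SMAD9 (0.82), and WWTR1 follows endothelium markers (0.71). CDH1, CTNNA1, MOB1B and WWC1 are below 0 with proliferation markers, which passed by r for CTNNA1 and WWC1 only. No relation is read from the follicle markers.

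YAP1 and SMAD3 also moved with a property of the libraries. In each library, the rank correlation over 15086 genes between gene length and the deviation from the mean over steers was taken as its gene length trend, which ran from -0.25 in control replicate 1 to 0.21 in GLP-2 replicate 1. Its median was -0.06 in BSA and 0.04 in GLP-2-treated steers. The study reports that RNA integrity differed among its samples. No integrity value per steer was used here, so its relation to the trend was not tested. With treatment means removed, YAP1 followed it with r = 0.61 and rho = 0.64 (permutation adjusted p = 0.0209 and 0.0272, r = 0.62 without the 2 farthest steers) and SMAD3 with r = 0.67 and rho = 0.67 (permutation adjusted p = 0.00988 and 0.0160, r = 0.68 without the 2 farthest steers). LIMD1 had a rho of 0.46, which did not pass (permutation adjusted p = 0.187), and CDH1 one of -0.12. By length YAP1 was the shortest of the 10 genes at 1413 bases, and SMAD3 had 2276. CDH1 had 4457 bases, and MOB1B, the longest at 6489, had a rho of 0.08. WWTR1 (1792 bases) and LIMD1 (2025 bases) were shorter than SMAD3, and WWTR1 had a rho of -0.08. SMAD9 (2337 bases) had a rho of 0.44 and LATS2 (3048 bases) one of 0.46. Why YAP1 and SMAD3 followed the trend was not tested. After a correction for gene length edgeR called 1 of the 10 genes, CDH1 (adjusted p = 0.0482), and 2296 genes in all, and with the correction and the replicate block 0 of 10 genes and 1189 in all. Control replicate 1, with the lowest trend, also held the lowest YAP1, SMAD3 and LIMD1 values of the 22 steers, 1.80, 1.80 and 1.00 CPM.

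**Figure D5:**
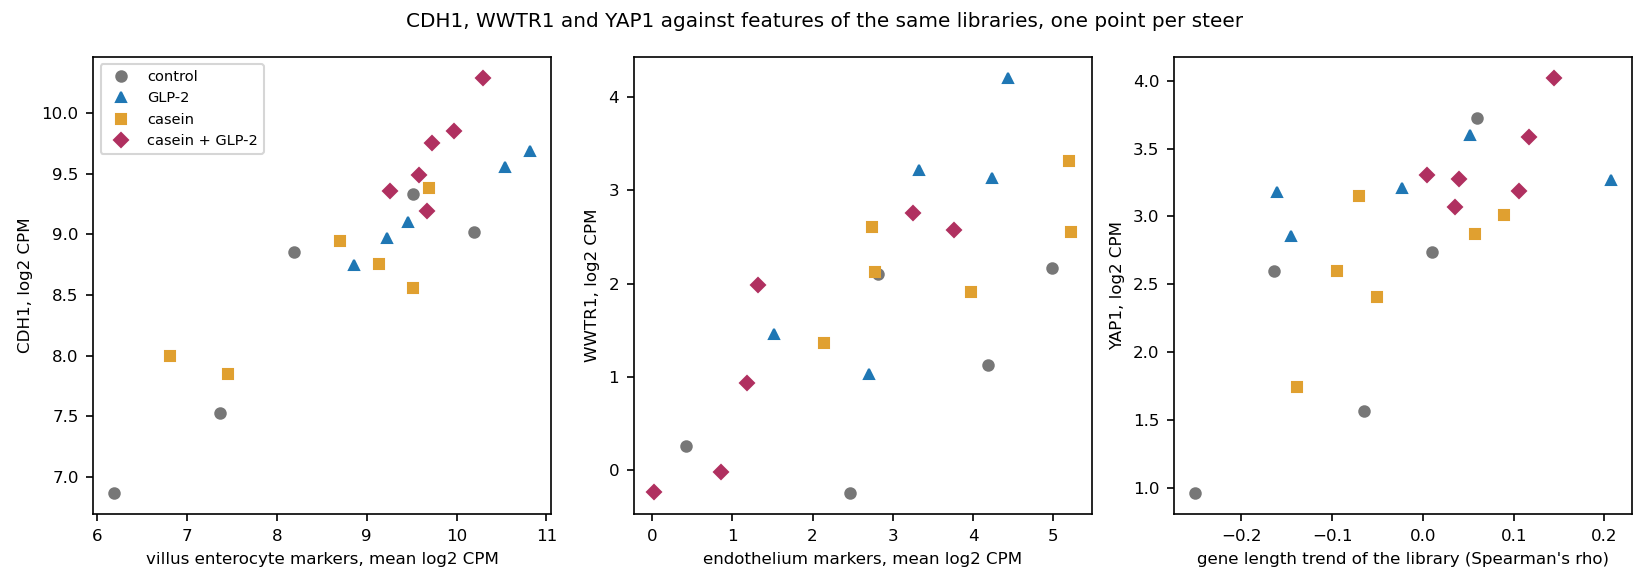
Log2 CPM (y axes) of CDH1 against the mean log2 CPM of villus enterocyte markers, of WWTR1 against that of endothelium markers and of YAP1 against the gene length trend of the library, 1 point per steer by treatment. CDH1 is lowest where the villus score is lowest, WWTR1 is highest in GLP-2 replicate 1, and YAP1 is lowest in control replicate 1, the library with the lowest trend of -0.25.

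Of 13245 other named genes, those most like CDH1 by Spearman's rho of log2 CPM over the 22 steers were HNF4G, a nuclear receptor of enterocytes (0.98), ADGRG7 (0.98), TM9SF2 (0.97), the receptor tyrosine kinase MET (0.96) and the atypical cadherin FAT1 (0.96). Among those most like YAP1 were BRAP (0.92), FBXO33 (0.90), HEATR5A (0.90) and DYNC1LI2 (0.90). These values keep the treatment differences and give a description without a test.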

How the data were processed

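RNA sequencing of bulk jejunal mucosa from 22 steers was used. Per the labels and the processing notes, the authors aligned reads to ARS-UCD1.2 with HISAT2 2.0.5 and counted genes with featureCounts 1.5.0-p3. The deposited counts are whole numbers per gene without normalization. The deposited FPKM values equal counts per length and library total times 1 constant per library, from 0.798 to 1.37, and so carry a further scaling by the authors. Groups came from the labels.

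Genes were kept by filterByExpr (minimum count 10), normalized by TMM and tested in R 4.3.3 by edgeR 4.0.16 (quasi-likelihood test), with limma 3.58.1 and DESeq2 1.42.0 as alternatives. Steers were pooled by injection and by infusion for the 2 overall comparisons, and the 4 treatments were fitted in 1 model for pairwise contrasts and the interaction. Log2 CPM used a prior count of 2. Library totals, which set the precision, ran from 8809666 to 28447810 counts. On simulated data for GLP-2 against BSA (13883 genes), 92 of 98 genes changed by 1 on the log2 scale and 94 of 94 changed by 2 were recovered, with 7 false calls. The simulation gave every gene the same dispersion. In BSA steers the coefficient of variation of the 10 genes ran from 29.9% (CTNNA1) to 70.8% (SMAD9). The recovered shares therefore do not tell how many such changes could be detected in these genes. The permutation tests of relations were also tested on simulated data.

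Replicate numbers mark the body weight blocks in which steers were randomized, so they pair steers by design. With treatment means removed, the mean correlation over 30 pairs of libraries sharing a block was 0.03 (-0.46 to 0.39) and over 151 pairs from different blocks -0.01, and the block was an alternative, as the study's test had none.

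The 10 genes and the lists were chosen with earlier results of these data known, and the study had named several of the genes as responding, so their counts are not independent evidence. All 10 genes were described in every comparison. Of each pathway list, every called gene was named if at most 6 were called, otherwise the 3 with the largest change in each direction, with CCN1, CCN2, ANKRD1, STK3, STK4, LATS1 and MOB1A in any case. The 5 genes most like CDH1 and YAP1 were named by Spearman's rho, except 1 that is not reported here. AJUBA, WTIP, SMAD1, SMAD2, CTNNB1, DOCK5 and single marker genes were also named, chosen with their values known. Leaving out the follicle-rich steers (summed follicle CPM above 1000) was chosen after seeing the data. No sequences are shown, as the tables used here hold none.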

Additional observations from a re-analysis of the deposited data

How the results depend on the processing

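The number of the 10 genes called with GLP-2 against BSA (2) was 6 in DESeq2's Wald test, 6 in limma on log2(FPKM + 1) and on log2(FPKM + 0.1), 6 at a threshold of 0.1, 1 after the gene length correction, and 0 at a threshold of 0.01, with the replicate block and gene length correction together, with the B cell follicle, pan-epithelial or villus enterocyte score as a covariate, and without the follicle-rich steers. Leaving out each steer gave 0 to 8. It was 1 on dropping replicate 3 of the casein or GLP-2 steers, replicate 2 of casein + GLP-2 or replicate 1 or 5 of the controls, 4 on dropping GLP-2 replicate 4 and 5 on dropping casein replicate 6. CDH1 stayed called in 15 and MOB1B in 14 of these 22 fits, with log2 fold changes of 0.76 to 1.00 and 0.56 to 0.75.

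All genes called with GLP-2 (1881) were 2999 in DESeq2's Wald test, 689 with the replicate block, 1189 with the replicate block and gene length correction, 3633 at a threshold of 0.1, 0 at 0.01, 0 under each covariate and without the follicle-rich steers, and 634 to 3516 without each steer. They were 2092 and 1971 in limma on log2(FPKM + 1) and on log2(FPKM + 0.1), and 2296 after the gene length correction. The 20 called genes of the 7 pathway lists became 36 in DESeq2's Wald test, 13 with the replicate block, 40 and 0 at thresholds of 0.1 and 0.01, 0 under each covariate and without the follicle-rich steers, and 10 to 41 without each steer. With casein, DESeq2's Wald test called 5 genes in place of 0. For casein + GLP-2 against casein it called 1 of the 10 genes in place of 0. Without control replicate 2, the count for GLP-2 against control was 1 (0 to 1 over all steers left out).

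Fold changes turned sign for LATS2 with the follicle (0.24), pan-epithelial (0.28) and villus enterocyte (0.041) score as a covariate and without the follicle-rich steers (0.16), and for WWC1 with the follicle (-0.062) and villus enterocyte (-0.14) score. The cause was not tested. The share of higher genes among all called with GLP-2 was 38.0%, 50.9% with the replicate block, 57.8% and 58.1% in limma on FPKM and 20.1% after the gene length correction. The replicate block alone changed no call of the 10 genes. SMAD9 was not tested at a minimum of 10 counts in every steer. YAP1, WWTR1, SMAD9 and LIMD1 rested on as few as 29, 10, 6 and 18 counts in a library, which limits what could be detected for them.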
